A study of Rattus norvegicus with 4 samples.

Results

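The ribosomal RNA locus peaks are the H1T2 ChIP-sequencing peaks whose nearest annotated gene is Rn5-8s, LOC257642 or LOC310926. They were chosen by the gene name that the authors' annotation gives to each peak, and they number 116 of the 1930 annotated peaks used here (6.01%). The whole list holds 11570 peaks, and as gene names were used for the annotated peaks alone, further peaks of these loci among the others are not counted. Rn5-8s encodes the 5.8S ribosomal RNA. LOC257642 is named in the annotation as an rRNA promoter binding protein (ribin) and LOC310926 as a hypothetical protein. Both are gene models that lie among ribosomal RNA sequence. The 4 aliases of LOC310926 are listed under Rn18s in the RefSeq names of GRCr8. Rn5-8s was the nearest gene of 35 of the peaks, LOC257642 of 27 and LOC310926 of 54.

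The study immunoprecipitated H1T2 from decondensed, formaldehyde-fixed nuclei of rat testes of 35 to 50 days, labelled as round and elongating spermatids. The data comprise 2 H1T2 IP samples, made with an antibody of the authors against H1T2, and 2 input samples of the same kind of chromatin, sequenced as read pairs of 150 nt. All samples are of the same age and tissue and no other treatment or genotype is given in the labels. The nuclei came from whole testes, and as the data hold no expression values, the labelled cell type could not be checked against markers.

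Ribosomal RNA genes occur in mammals as many near-identical repeats. RNA polymerase I transcribes each repeat into 1 precursor, which is cut into the 18S, 5.8S and 28S ribosomal RNAs in that order, and long intergenic spacers rich in repeats separate the units. A genome assembly holds only some of these copies, so that reads from many repeats can pile up on the few that are assembled. H1T2 is a linker histone of spermatids, which takes part in the condensation of chromatin before protamines replace the histones.

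Per its header, the list used here was called on merged libraries, with 16203958 tags of the IP and 78371120 of the input kept. The list holds 1 value per peak and none per replicate, so the spread between replicates is unknown. The study also describes calls on each replicate and the list as peaks that the replicates share; such calls were not used here, and overlap between replicates could not be checked. For each peak it gives the pileup (how many IP tags overlap the summit), the fold enrichment (pileup over the local input background, brought to the depth of the IP) and the -log10 p-value. The background in tags was computed here as pileup divided by fold enrichment. The smallest -log10 p-value among the annotated peaks used here is 17.78, and 1 other peak of the list at or above this value is not among them, so the p-value of IP against input chose the members together with the gene name. Pileup, fold enrichment, background and length come from this same comparison of IP with input, and all of them are given as a description with no test. The ranges in parentheses after a fold enrichment are 95% exact Poisson intervals, in which only the pileup varies, and cover counting error only.

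The members just inside the limit were chr1:11937298-11937609, with a -log10 p-value of 17.94, a pileup of 150 tags, with a fold enrichment of 2.23, and chr14:46613488-46613738, with values of 19.51, 110 tags and 2.74. Just outside it, among peaks of the same loci, were chr6:31055347-31056095, with a -log10 p-value of 17.75, a pileup of 116 tags, with a fold enrichment of 2.52, and chr14:46640024-46640719, with values of 16.41, 76 tags and 3.07. All positions are in rn6.

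The peaks lay in 5 clusters on 4 chromosomes, where members less than 100 kb apart were taken as 1 cluster. The cluster of chromosome 14, chr14:46496327-46688239, was the longest with 192 kb and held 59 members. The cluster of chromosome 1, chr1:11903594-11975082, held 25 members in 71.5 kb. The cluster of chromosome 5, chr5:91124022-91141021, held 6 members in 17.0 kb, all nearest to Rn5-8s. Chromosome 6 carried 2 clusters of 13 members each. The first, chr6:30628052-30650814, contains a copy of Rn5-8s and the start of LOC257642. The second, chr6:31046666-31069195, lies 408 to 429 kb from the nearest annotated start, that of LOC257642, and its name therefore comes from a distant gene. Still, 2 of its members were centred on 28S-like repeats.

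The 5 spans add up to 326 kb and held 148 peaks of the list, which are the 116 members, 29 peaks below the limit of the annotation and 3 peaks nearest to Rn18s or Rn28s. This is 35.3 to 71.0 peaks per 100 kb, while the remainder of the same chromosomes, up to their last peak, held 0.358 to 0.483 per 100 kb. As each span was drawn from its first member to its last, a higher density inside follows from this choice, and nothing is read from it. Peaks covered 76.3% of the bases of the cluster on chromosome 5, 49.6% on chromosome 1, 41.9% and 39.2% in the first and second clusters of chromosome 6, and 33.6% on chromosome 14. On chromosome 14 the first member, chr14:46496327-46497205, stood apart from the others. It was centred on a RatSatRep2 repeat, with a pileup of 62 tags and a background of 9.72 tags.

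**Figure D1:**
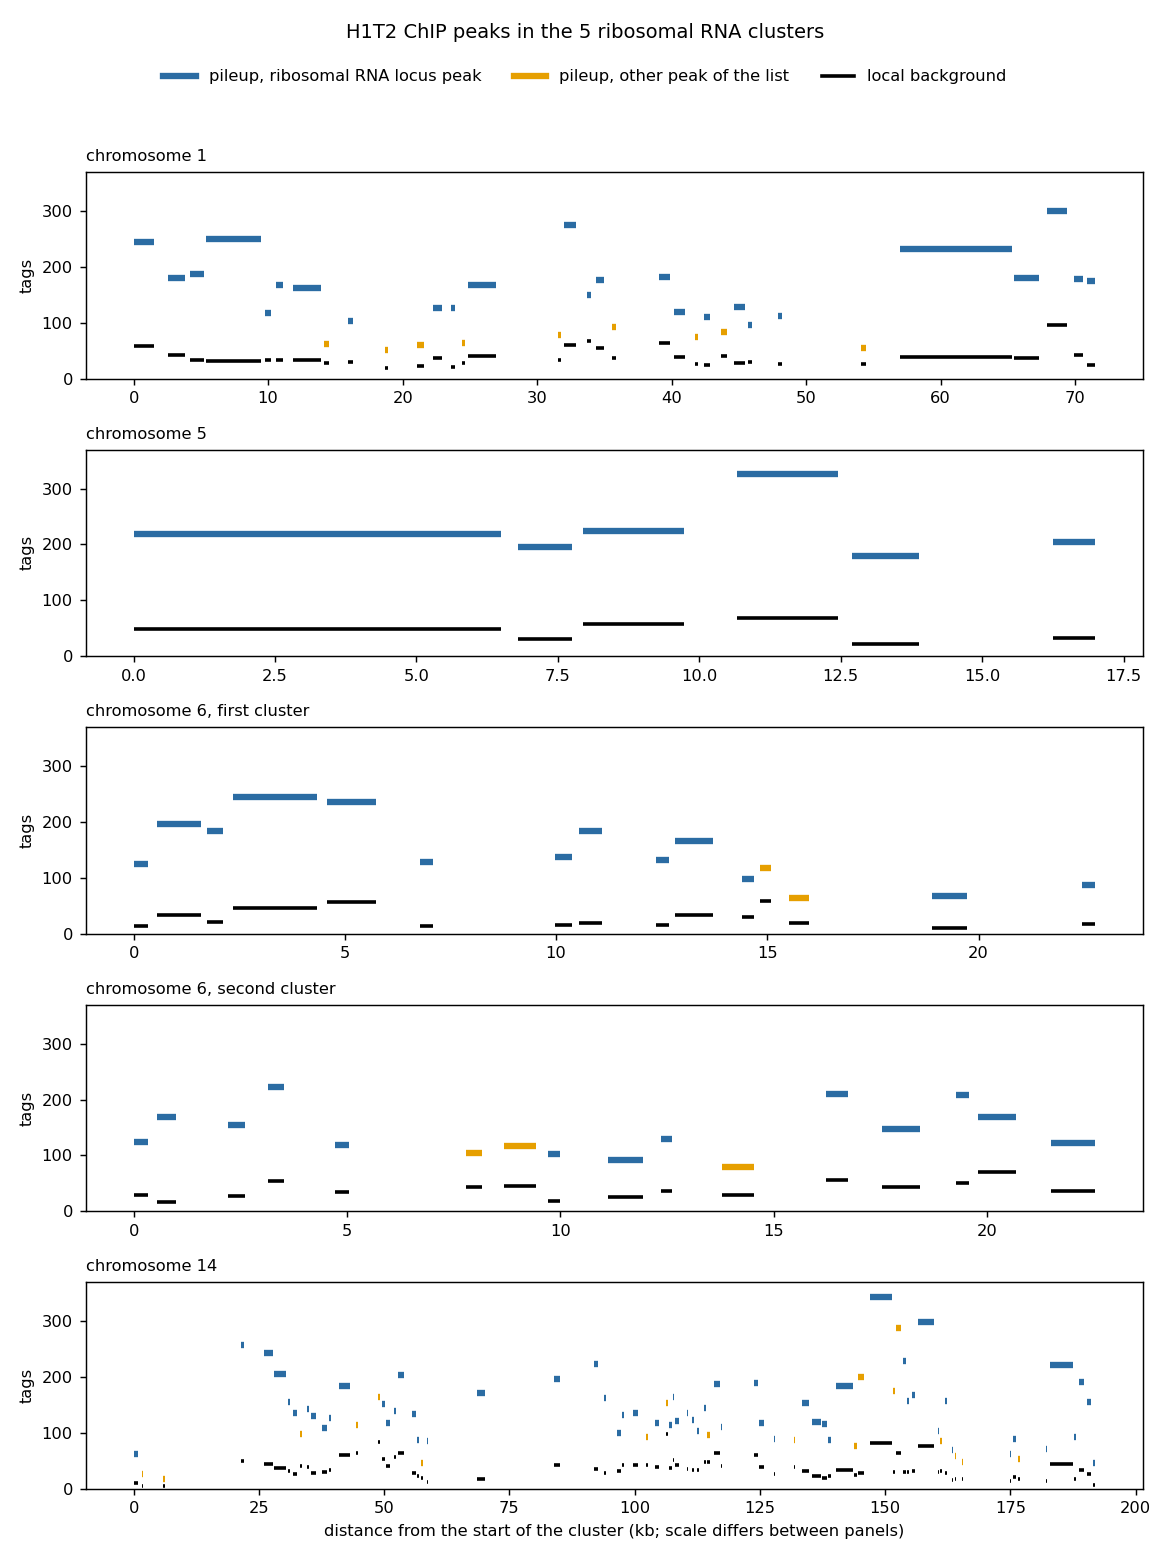
Pileup (coloured bars) and local background (black bars), in tags, of every peak of the list in the 5 clusters, against the distance in kb from the start of each cluster; the width of a bar is the length of the peak. Members are blue and other peaks of the list are orange, and the pileup of the members runs from 46 to 344 tags.

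The 116 peaks combined a large pileup with a large input background. Their median pileup was 151 tags (quartiles 118 and 188, range 46 to 344), and all 116 lay above the upper quartile of the list, 30 tags. Over the whole list the median was 22 tags and over the other 1814 annotated peaks 46 tags. The median local background of the members was 33.5 tags, compared with 3.52 tags over the list and 5.99 tags over the other annotated peaks. The smallest background of the list, set by depth and genome size, is 1.65 tags. Of the 116 members 0 were called against it, beside 1860 of the 11570 peaks of the list. A background of at least 20 tags was found in 99 of the members (85.3%) and in 507 peaks of the list (4.38%). How much of the IP and input signal comes from repeats that are not in the assembly was not tested.

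The fold enrichment was moderate. The median of the members was 4.43 (quartiles 3.46 and 5.51, range 2.23 to 9.79), whereas it was 6.15 over the list and 7.74 over the other annotated peaks. A fold enrichment of at least 5 was found in 41 of the 116 members, or 35.3%, beside 68.6% of all peaks of the list and 84.1% of the other annotated peaks. As the same comparison of IP with input chose the members, nothing is read from this difference. The p-value limit also ties the measures to each other, since a peak with a larger background passes it with a lower fold enrichment. Among annotated peaks with a background of 20 to 100 tags, a range chosen after the data were seen, the 99 members had a median fold enrichment of 4.21 and the 190 other peaks one of 3.65. The groups were not matched within this range, with median backgrounds of 36.1 and 42.9 tags.

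Among the other annotated peaks, the 232 satellite and simple repeat peaks had a median pileup of 131 tags, a median background of 32.4 tags and a median fold enrichment of 4.57, but their quartiles of background were far apart, 2.85 and 82.4 tags, compared with 26.3 and 43.0 tags in the members. The 452 RatSatRep2 peaks outside introns had a median pileup of 46 tags, a median background of 6.20 tags and a median fold enrichment of 7.65. No test was made between these groups of peaks, since p-values chose all of them.

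**Figure D2:**
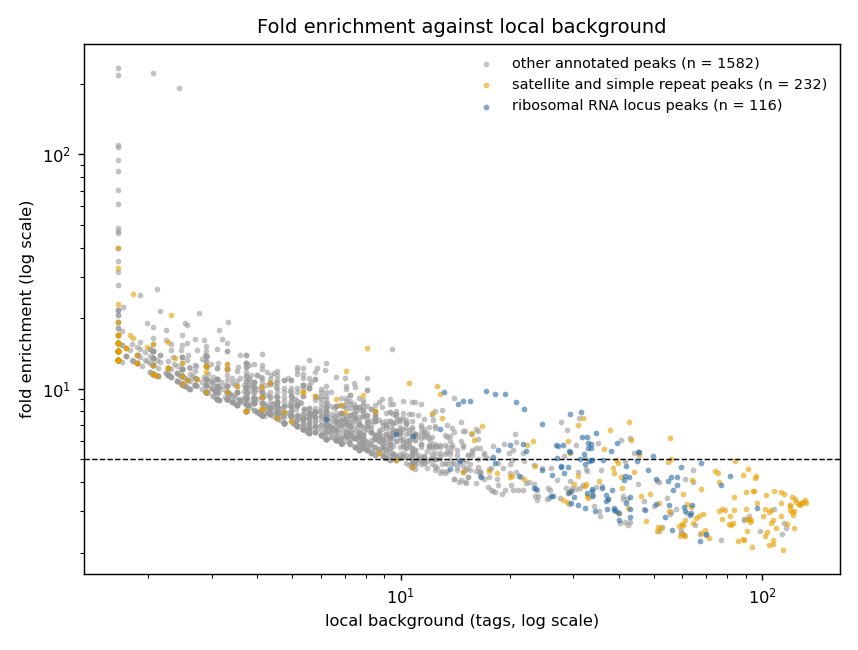
Fold enrichment against local background in tags, both on log scales, for the 116 ribosomal RNA locus peaks (blue), the 232 satellite and simple repeat peaks (orange) and the remaining annotated peaks (grey); the dashed line marks a fold enrichment of 5. The lower edge of the points is set by the p-value limit, and 99 of the members lie at a background of at least 20 tags.

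The members were long. Their median length was 680 bp (quartiles 346 and 1034 bp), compared with 267 bp over the list and 347 bp over the other annotated peaks. In the whole list 7 peaks were longer than 3000 bp, and all 7 were members. The longest peak of the list, chr1:11960559-11968924, measured 8366 bp, with a pileup of 232 tags, with a fold enrichment of 5.87 (5.14 to 6.68). Next was chr5:91124022-91130515 with 6494 bp, 218 tags and 4.51 (3.93 to 5.15). The third was chr14:46679299-46683899 with 4601 bp, 222 tags and 4.93 (4.30 to 5.62). All 3 lie upstream of a copy of Rn5-8s. The longest peak of the list outside the members, 2912 bp, was centred on a satellite repeat on chromosome 13. Of the 100 peaks with the largest value in the list, members were 26 by length, 29 by -log10 p-value, 13 by pileup and 0 by fold enrichment.

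The start sites of Rn5-8s were worked out from the positions of the peaks and their annotated distances, which gave 7 copies. Of these, 2 lie on chromosome 1 on opposite strands, 63497 bp apart, 2 on chromosome 5 on the same strand, 2018 bp apart, 1 on chromosome 6 and 2 on chromosome 14. The first copy on chromosome 14 was given by 1 peak, and its strand, like that of Rn18s, was taken from Rn28s beside it. A copy with no annotated peak nearest to it could not be seen in this way. The copies are near-identical sequences and are not replicates. Around the first copy of chromosome 14, the start of Rn18s lay 2943 bp before that of Rn5-8s and the start of Rn28s 930 bp after it, the order of the precursor.

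A peak covered the start of Rn5-8s in 7 of the 7 copies. As the copies were found only through annotated peaks near them, nothing is read from this count. The first copy of chromosome 14 was given by the same peak that covers its start. In bins of 100 bp, each counted for the nearest copy alone, a bin counted where a peak overlapped any part of it. By this rule every copy had a peak in each bin from -400 to 500 bp. At some copies the outer bins were covered only in part. The peak at the second copy of chromosome 14, for example, ran from -345 to 437 bp. The peaks over the start had pileups of 156 to 344 tags, backgrounds of 27.3 to 81.1 tags and fold enrichments of 3.87 to 5.72. The lowest pileup was that of chr14:46686638-46687420 at the second copy of chromosome 14, whose fold enrichment was the highest of them, 5.72 (4.86 to 6.69). The highest pileup, 344 tags, belonged to chr14:46643208-46647636 at the first copy of chromosome 14. It is also the highest pileup of all members. This peak was 4429 bp long, with a fold enrichment of 4.24 (3.80 to 4.71), and it ran from 2957 bp before the start of Rn5-8s to 1471 bp after it, with its summit 2336 bp before the start. It thus began beside the start of Rn18s and ended within Rn28s.

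Upstream is the stretch where Rn18s lies at the first copy of chromosome 14. There, all 6 copies that could be counted had a peak overlapping every bin from -2900 to -2500 bp and from -2100 to -1100 bp. The outer bins were again covered only in part at some copies. In the second stretch, peaks ended at -1170 bp at the first copy of chromosome 1 and at -1188 bp at the first copy of chromosome 5. At the copy of chromosome 6, 1 peak ended at -1258 bp and the next began at -1103 bp. Between these stretches, from -2400 to -2300 bp, 2 of the 6 copies had a peak. At the middle of the second stretch, 4 copies had a peak of similar extent, 963 to 1060 bp long. Its pileup was 188 tags at the first copy of chromosome 1, 196 at the first copy of chromosome 5, 196 at the copy of chromosome 6 and 192 at the second copy of chromosome 14. The backgrounds of these 4 peaks were 33.5, 31.6, 33.7 and 32.9 tags and their fold enrichments 5.61, 6.20, 5.82 and 5.84. These 4 were set apart from the longer peaks after their lengths were seen. In the other 2 copies the position was inside a longer peak, of 8366 bp on chromosome 1 and 4429 bp on chromosome 14. Those longer peaks had fold enrichments of 5.87 and 4.24. Agreement between copies was not tested. The authors kept uniquely aligned read pairs alone, and what this does to near-identical copies was not tested.

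Downstream, in the stretch of Rn28s, 2 of 6 copies had a peak overlapping the bins from 1500 to 1700 bp. For the bins from 2200 to 2900 bp it was 5 of 6. The second copy of chromosome 14 had no peak beyond 1256 bp, where the cluster ends. Some of the tallest members lie in this stretch. Chr5:91134680-91136468, which covers the start of the second copy of chromosome 5, reached 326 tags, and chr1:11971463-11972959, centred on a 28S-like repeat, 300 tags. The latter also had the largest background of all members, 96.5 tags, and its fold enrichment was 3.11 (2.77 to 3.48). Of the peaks on 28S-like repeats after a copy, the 4 that begin less than 3000 bp from its start had backgrounds of 21.9 to 96.5 tags and fold enrichments of 3.11 to 8.21. The 8 that begin further away had backgrounds of 13.2 to 41.8 tags and fold enrichments of 4.26 to 9.72, so the ranges overlap. The members with the largest fold enrichment in their clusters were chr6:30634836-30635138, with a fold enrichment of 9.72 (8.11 to 11.6), and chr5:91136722-91137910, with one of 8.21 (7.05 to 9.50), 1 of each set.

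**Figure D3:**
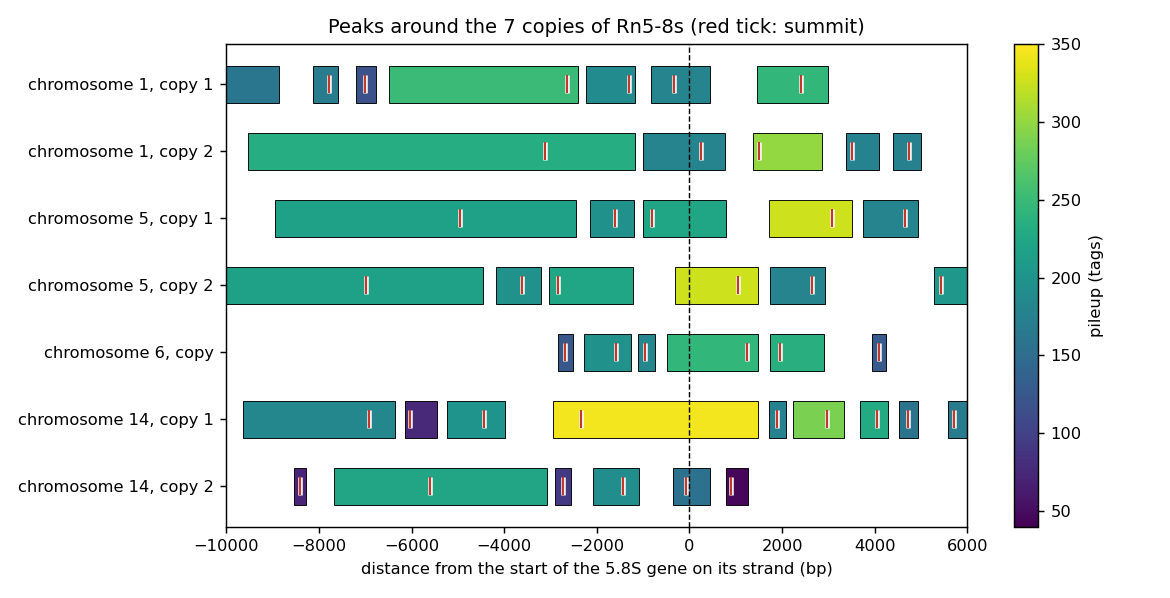
Peaks of the list (boxes, coloured by pileup in tags, with a red tick at the summit) around the 7 copies of Rn5-8s, against the distance in bp from the start of the gene on its own strand. The dashed line is the start of Rn5-8s. A peak covers it in all 7 copies, but the copies were found only through annotated peaks near them. The 2 rows of chromosome 5 show the same peaks shifted by 2018 bp.

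Of all 116 members, 8 were annotated as promoter-TSS peaks, out of 9 such peaks among the 1930. The 1930 are peaks with large -log10 p-values. The paper reports many more promoter peaks over the whole list, and those were not counted here. Of the 8 members, 6 belong to Rn5-8s. Besides the 2 peaks on chromosome 14 given above, they are chr1:11906151-11907421 with a pileup of 180 tags, with a fold enrichment of 4.21 (3.62 to 4.87), chr1:11969078-11970869 with 180 tags and 4.97 (4.27 to 5.75), chr5:91131960-91133755 with 224 tags and 3.87 (3.38 to 4.41), and chr6:30629798-30630165 with 184 tags and 8.81 (7.58 to 10.2). The pileups of the last pair differ less than their backgrounds, 57.9 and 20.9 tags. The start of LOC310926 on chromosome 1 carried chr1:11914191-11914718, with 168 tags, a fold enrichment of 4.98 (4.26 to 5.79). The start of LOC257642 on chromosome 14 carried chr14:46651755-46652342, with 168 tags and 5.24 (4.48 to 6.10). These promoters are starts of annotated transcripts. For Rn5-8s, whose RNA is cut from the precursor, the annotated start is not where RNA polymerase I begins.

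The remaining ribosomal RNA genes of chromosome 14 had peaks of the same kind. The peak nearest to Rn18s, chr14:46640938-46642188, had a pileup of 200 tags, with a fold enrichment of 7.19 (6.23 to 8.26) and was centred 1659 bp before the start of the gene on an 18S-like repeat. The peaks nearest to Rn28s, chr14:46647892-46648252 and chr14:46648409-46649502, had 176 and 288 tags and fold enrichments of 5.76 (4.94 to 6.68) and 4.49 (3.99 to 5.04). They are not counted as members. Outside the clusters, 4 annotated peaks were centred on an 18S- or 28S-like repeat. These were named after their values were seen. The tallest, chr14:46329499-46329871, had 266 tags over a background of 43.0 tags and lies before the cluster of chromosome 14. The other 3 had pileups of 22, 30 and 48 tags over backgrounds of 1.65, 3.72 and 6.83 tags. Their fold enrichments were 13.3, 8.06 and 7.03.

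The fold enrichment varied with what lay at the centre of a member. The 22 members centred on an 18S- or 28S-like repeat had a median fold enrichment of 5.75, and the 14 on a CpG island one of 5.51. The 6 at a promoter, exon or end of the LOC257642 or LOC310926 gene models had 5.85. The 10 annotated at a promoter, exon or end of the 5.8S or 28S gene, called at the gene below, had 4.90. Some of these 10 lie beside Rn5-8s, as chr6:30629798-30630165 at -1103 to -736 bp and chr14:46687772-46688239 at 789 to 1256 bp from its start. The median fold enrichment was 3.49 in the 30 members on other repeats and 3.65 in the 23 intergenic members with no feature. In the 11 in introns of the gene models it was 3.46. The median backgrounds of these groups were closer to each other, from 31.4 tags for CpG islands to 44.1 tags for the 5.8S and 28S gene, while the median pileups ran from 118 tags in introns to 204 tags at the 5.8S and 28S gene. A fold enrichment of at least 5 was found in 17 of the 22 members on 18S- or 28S-like repeats, 9 of the 14 on CpG islands, 4 of the 6 at a promoter, exon or end of the gene models and 4 of the 10 at the 5.8S or 28S gene. It was found in 1 of the 30 on other repeats, 5 of the 23 with no feature and 1 of the 11 in introns. Neighbouring members and near-identical copies are not independent, and these counts are a description with no test.

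**Figure D4:**
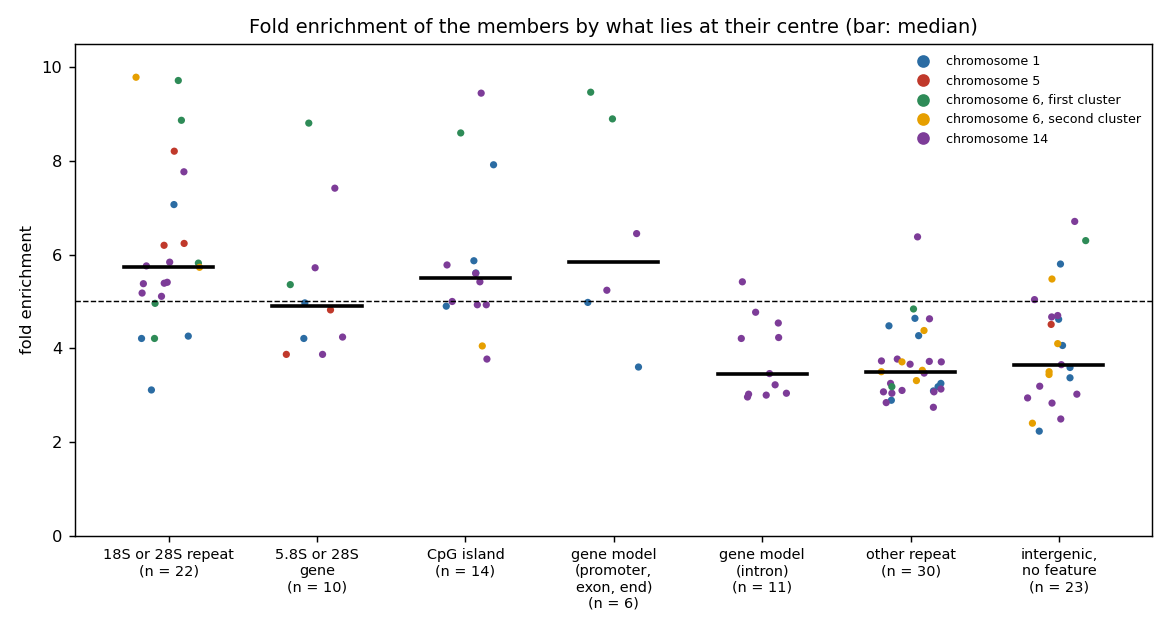
Fold enrichment of each of the 116 members, grouped by the annotation at the centre of the peak and coloured by cluster; black bars are medians and the dashed line is a fold enrichment of 5. Members on 18S- or 28S-like repeats and CpG islands have medians of 5.75 and 5.51, and those on other repeats one of 3.49.

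The same was seen with the distance to the annotated start. The 50 members within 10 kb had a median pileup of 176 tags and a median fold enrichment of 5.30, and the 66 further away 133 tags and 3.69. Clusters differed as well. The median fold enrichment was 6.30 in the first cluster of chromosome 6, 5.51 on chromosome 5, 4.26 on chromosome 1, 4.23 on chromosome 14 and 3.71 in the second cluster of chromosome 6. In the same order, 7 of 13, 5 of 6, 6 of 25, 12 of 59 and 2 of 13 members were at a ribosomal RNA repeat or gene. Groupings by annotation, distance and cluster thus overlap, and their separate parts were not tested. The first cluster of chromosome 6 had a median pileup of 138 tags, close to the 148 tags of the second, but a median background of 19.4 tags where the second had 36.8 tags. Its members with the largest -log10 p-value and the largest pileup were chr6:30638594-30639145 at the end of LOC257642, with 184 tags, a fold enrichment of 9.47 (8.15 to 10.9), and chr6:30630405-30632392 over Rn5-8s, with 244 tags and 5.36 (4.71 to 6.08).

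In the second cluster of chromosome 6, chr6:31047205-31047660 on a 28S-like repeat had the largest fold enrichment of all members, 9.79 (8.37 to 11.4), with 168 tags. Chr6:31049804-31050198 on a CpG island had the largest pileup of the cluster, 222 tags, with a fold enrichment of 4.05 (3.53 to 4.62). The longest member there, chr6:31068157-31069195 on a BC1_Rn repeat, had 122 tags and 3.31 (2.75 to 3.95). On chromosome 1 the largest -log10 p-value of all members, 132.24, which ranked 15 in the list, belonged to chr1:11908999-11913081, a peak of 4083 bp on a CpG island upstream of the first copy of Rn5-8s, with 250 tags, a fold enrichment of 7.92 (6.97 to 8.97). On chromosome 14, chr14:46649848-46650460 on a 28S-like repeat had the largest -log10 p-value, 119.10, with 228 tags and 7.77 (6.79 to 8.85). The largest fold enrichment there was 9.45, at chr14:46564951-46566527 on a CpG island, with 172 tags.

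Members were centred on the same repeats in several clusters, and whether these repeats lie in the spacers was not tested. RNLTR3-int, the internal part of an endogenous retrovirus, lay at the centre of 9 members, with pileups of 88 to 276 tags and fold enrichments of 3.04 to 4.84. BC1_Rn lay at the centre of 4 members, with 98 to 122 tags and fold enrichments of 2.84 to 3.31. B1_Mur3 and RMER17B_Rn lay at the centre of 3 members each. Some pairs of neighbouring peaks had nearly the same spacing on chromosomes 1 and 14. On chromosome 1, chr1:11942619-11943497 on B1_Mur3 had a length of 879 bp, a pileup of 182 tags, with a fold enrichment of 2.89, and the next peak began 1114 bp later with 120 tags. On chromosome 14, chr14:46620072-46620948 on B1_Mur3 had a length of 877 bp, 190 tags and 3.13, and the next peak began 1117 bp later with 118 tags. Likewise, a peak on a (TCCCC)n repeat with 96 tags began 992 bp after a peak of 128 tags on chromosome 1, and one with 88 tags 1032 bp after a peak of 134 tags on chromosome 14. These pairs were picked after their values were seen, and the third B1_Mur3 member, chr14:46603077-46603731 with 114 tags, had its next peak 930 bp later. For other shared repeats the distance to the next peak varied. It was 436, 1590 and 2376 bp for the BC1_Rn members that had one, and 989, 1312 and 3922 bp for the RMER17B_Rn members.

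Of 25 genes of ribosomal RNA and of its transcription and processing, 4 were the nearest gene of an annotated peak, with 7 peaks in all, beside 6.27% of the 19208 RefSeq genes of GRCr8 with a curated transcript, matched by gene identifier. The list holds ribosomal RNA genes that lie in the clusters themselves, and nothing is read from its count. Rn18s and Rn28s account for 3 of these peaks and are described above. Rn5s, the 5S ribosomal RNA gene that RNA polymerase III transcribes, had 2 peaks on chromosome 12, of 296 and 272 tags over large backgrounds of 116 and 113 tags, with fold enrichments of 2.55 and 2.40. Rrn3, an initiation factor of RNA polymerase I, had 2 peaks of 96 and 60 tags, which lay 257 and 192 kb from its start. The other 21 genes, among them Ubtf, Ttf1, Ncl, Npm1 and Fbl, were the nearest gene of 0 of the 1930 annotated peaks.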

How the data were processed

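Nuclei of rat testes were used for H1T2 ChIP with 2 IP and 2 input samples. The authors aligned unique read pairs to rn6 with Bowtie2, removed duplicates with SAMtools, merged the replicates and annotated peaks with HOMER. Per the file headers, peaks were called by MACS 2.0.9 in broad mode, with a p-value cutoff of 5e-05 and at most 2 IP and 3 input tags per position, while the methods name another version and cutoff. The deposited signal is the pileup in tags. The deposited fold enrichment is its ratio to the local background. The deposited -log10 p-value is a Poisson value, and the deposited -log10 q-value was not used. Peak length in bp was taken as deposited.

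The authors' annotation was used for the 1930 peaks held here and joined by chromosome, start and end; annotation beyond these peaks was not used here. Of the tags, 47.6% of the IP and 93.8% of the input were kept. All pileups were even (0 odd), as they would be if both tags of each pair were counted, and intervals are too narrow if a pair is 1 observation. Peaks of each cluster were named by a rule: promoter-TSS members, the members largest in pileup, fold enrichment, length or -log10 p-value, the peaks at the limit and those nearest to Rn18s and Rn28s. Members and lists were chosen with earlier results of these data known. Of the 3 gene identifiers, 1 matched RefSeq names of GRCr8, which were used for names and to count genes. No rn6 sequence was used here, so sequences of the members are not shown. Python 3.11.15, numpy 2.4.6, pandas 2.3.3, scipy 1.17.1 and matplotlib 3.10.9 were used.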

Additional observations from a re-analysis of the deposited data

How the results depend on the processing

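No paired analysis was possible because the peaks were called on merged libraries. Of 61 alternative values, 44 stayed within the 95% interval of the value given (exact binomial for medians, Wilson for the percent) or within 1.5 times a count. These include values that could not move, such as the fold enrichment, length and number past a p-value of 1e-05 when a pair of tags is counted as 1. Leaving out any 1 of the 5 clusters kept all 5 summary values within their intervals. The intervals treat members as independent, which neighbouring members and near-identical copies are not. Staying within them is therefore no measure of robustness.

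Limiting the members to those within 10 kb of the annotated start gave 50 peaks, a median fold enrichment of 5.30, a pileup of 176 tags, a length of 870.5 bp and 54.0% with a fold enrichment of at least 5. Members at a ribosomal RNA repeat or gene gave 5.40, 188 tags, 932 bp and 65.6%. A -log10 p-value of at least 30 gave 4.96, 172 tags and 47.0%. Every peak of the list in the cluster spans gave a fold enrichment of 3.96. Merging peaks within 1 kb gave 53 peaks and counting annotated peaks on a ribosomal RNA repeat 27. Counting a pair of tags as 1, the median pileup was 75.5 tags and the median background 16.7 tags by construction. Without the RatSatRep2 member that stands apart, an alternative chosen after values were known, the median fold enrichment was 4.38. Depth per sample is not recorded in the list, and the spread between replicates could not be measured.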
